A study of Mus musculus with 10 samples.

Results

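Bbc3, Pmaip1 and Fas are genes of the p53 apoptosis program, and they are described here by the ChIP-seq peaks lying on them and around them in mouse embryonic stem cells. Peaks were taken from 10 deposited lists where they overlapped a gene's mm9 span with 10 kb added on each side. These 3 windows held 44 of the 543779 peaks of the series, 28 at Bbc3, 11 at Pmaip1 and 5 at Fas. The cells were of the R1E line (mixed C57BL/6X129Sv background, less than 20 passages, grown with serum and leukemia inhibitory factor). They were either left untreated or kept in 0.5 uM Adriamycin for 8 h, with the untreated cells as the only control. Adriamycin, also called doxorubicin, traps topoisomerase II on DNA and leaves strand breaks. Each of the 5 targets had 1 library per condition, so no difference below has a replicate check, and no p-value is given. The targets were H3K4me3 (a promoter mark), H3K79me2 (found over the bodies of genes being transcribed), RNA polymerase II (Pol II), H3K27me3 (the Polycomb mark) and hnRNP L (an RNA-binding protein). The lists come from whole cultures, in which a change in every cell cannot be told apart from a change in some of them.

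The p53 protein is stabilised after DNA breaks and switches on genes by binding near them. Bbc3 encodes Puma and Pmaip1 encodes Noxa. Both are BH3-only proteins that bind anti-apoptotic members of the Bcl-2 family and so free the mitochondrial route to cell death. Fas encodes a death receptor at the cell surface, which starts the route that runs through caspase-8. No library of p53 itself is part of the series, so p53 binding was not measured.

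The promoter sequences of Bbc3 and Fas are shown because their H3K4me3 peaks sit over the gene start, and the pair differ in base composition. Both are RefSeq sequences on GRCm38.p6, plus strand, and hold the 250 bases before an annotated start. Capitals mark GGGCGG, the GC box, on either strand (CCGCCC on the other). The Bbc3 window lies at chr7:16309333-16309582 and is the most upstream of the 3 that RefSeq gives for the gene, and the Fas window lies at chr19:34290409-34290658.
Bbc3: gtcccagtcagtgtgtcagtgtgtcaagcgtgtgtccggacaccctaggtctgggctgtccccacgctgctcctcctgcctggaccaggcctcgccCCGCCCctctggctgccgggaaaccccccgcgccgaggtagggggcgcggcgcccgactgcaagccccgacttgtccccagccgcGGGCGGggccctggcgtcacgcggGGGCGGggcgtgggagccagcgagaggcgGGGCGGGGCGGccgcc
Fas: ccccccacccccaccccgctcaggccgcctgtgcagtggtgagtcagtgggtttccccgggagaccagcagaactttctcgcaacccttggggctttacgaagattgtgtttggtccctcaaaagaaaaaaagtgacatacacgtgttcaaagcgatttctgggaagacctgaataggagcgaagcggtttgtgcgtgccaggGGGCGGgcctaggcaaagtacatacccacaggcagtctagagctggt

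The Bbc3 window had a GC content of 76.4%, 27 CpG dinucleotides and 5 GC boxes. The other Bbc3 windows in RefSeq had GC contents of 72.4% and 81.6%, 23 and 37 CpG, and 1 and 7 GC boxes. The Fas window had a GC content of 56.4%, 11 CpG dinucleotides and 1 GC box. The contrast in GC boxes therefore depends on the Bbc3 window, while GC content and CpG number were higher in each of the 3. Over 32841 RefSeq promoter windows of this length the median GC content was 52.4% and the median number of CpG was 6. A GC box was present in 32.7% of those windows, and 4.09% held at least 4. Neither printed window held TATAAA on either strand (12.4% of all windows do). Neither held an exact match to the 10-base p53 consensus half-site, which 7.13% of all windows hold. A missing match says only that these letters are not in these windows. Coordinates below are on mm9 and were not carried over to the build of the sequences. Whether the printed windows lie under the H3K4me3 peaks was therefore not determined.

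H3K4me3 covered the start of each of the 3 genes in untreated cells, and it was there again after Adriamycin. The start is taken as the lower end of the span, rounded to 100 bp. RefSeq gives the plus strand for Bbc3 and Fas. For Pmaip1 the plus strand is general knowledge and was not read from a table, and its upstream and downstream values rest on it. Bbc3 had a broad peak, Pmaip1 a peak of middle width and Fas a narrow one. All 3 were wider after Adriamycin, and the most so at Fas.

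At Fas the H3K4me3 peak ran over 752 bp in untreated cells (chromosome 19, 34364888-34365639) and over 2088 bp after Adriamycin (34364767-34366854). Its upstream edge moved by little, from -212 to -333 bp relative to the gene start. The downstream edge went from 539 to 1754 bp into the gene. The treated peak was thus 2.78 times as wide, and most of the added length lay inside the gene. At Pmaip1, the peak over the start measured 2706 bp in untreated cells (chromosome 18, 66617096-66619801) and 3657 bp after Adriamycin (66616443-66620099). It was 1.35 times as wide and grew on both sides. A second, smaller Pmaip1 peak began about 2 kb into the gene and measured 903 bp and 943 bp.

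The Bbc3 peak over the start was 6499 bp wide in untreated cells (chromosome 7, 16893668-16900166) and 6679 bp after Adriamycin (16893484-16900162). That is 1.03 times as wide, and it began at -32 and -216 bp from the start, the first of these within the rounding of the span. Peaks of at least 6 kb were rare, at 1.21% of untreated and 0.482% of Adriamycin H3K4me3 peaks. A second Bbc3 peak lay at the far end of the gene, ending 9808 bp (untreated) and 9791 bp (Adriamycin) from the start, and it measured 1330 bp and 1835 bp. Among all 29710 H3K4me3 peaks that matched 1 to 1 between the conditions, 31.3% were wider after Adriamycin and 2.72% at least 1.5 times wider. The median difference over all pairs was -90 bp. So each of the 3 gene starts had a wider peak where most pairs had a narrower one, and Fas alone of the 3 passed 1.5 times. These shares pool pairs of every starting width and score. The untreated Fas peak, at 752 bp, was narrower than the median of its list (1271 bp). Widening was not counted among pairs of like starting width.

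**Figure D1:**
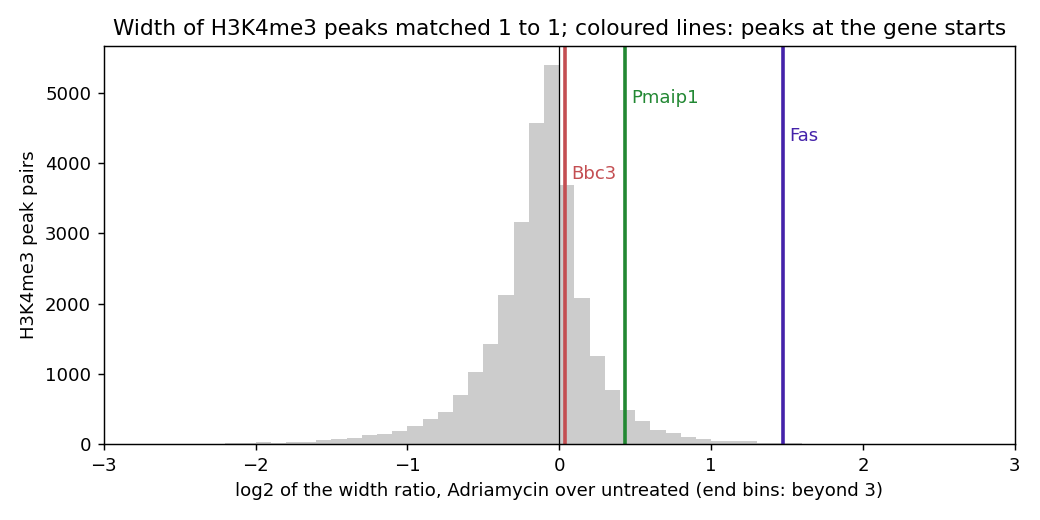
Histogram of the log2 ratio of peak width (Adriamycin over untreated) for 29710 H3K4me3 peaks matched 1 to 1, with the number of pairs on the vertical axis. The coloured lines are the peaks at the starts of Bbc3 (6499 and 6679 bp), Pmaip1 (2706 and 3657 bp) and Fas (752 and 2088 bp), all to the right of 0.

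The peak scores were also read within each list. A score is the authors' value, on which MACS puts 10 points for each factor of 10 in the p of a peak, and values of 3100 and above are treated as its ceiling. Scores of different libraries are not on one scale, so each peak was ranked among the same 29710 matched H3K4me3 pairs, once by untreated and once by Adriamycin score. A rank of 0 is the weakest peak and 100 the strongest.

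The Bbc3 start peak had a score of 408.56 in untreated cells, a rank of 44.9%. After Adriamycin its score was 3100, at the ceiling. At this same score 24.8% of the pairs were tied, and their shared rank was 86.9%. The Fas start peak had a score of 94.24 and a rank of 13.2%, then 387.7 and 43.3%. The Pmaip1 start peak had a score of 313.44 and a rank of 39.9%, then 601.97 and 51.0%. Ranks were thus higher after Adriamycin by 41.9 points at Bbc3, 30.1 points at Fas and 11.1 points at Pmaip1. Over all pairs 15.6% gained at least 10 points, 15.5% lost at least 10, and 1.12% gained at least 30 points. These shares pool pairs of every starting rank, and a pair that starts high has little room to gain. Gains of 10 or 30 points were not counted among pairs of like starting rank. The Fas gain lies just past 30 points, a limit chosen after values were seen. Among 166 pairs of at least 6 kb in untreated cells, 1 gained 30 points or more (0.602%), and that one was Bbc3. Of 1395 pairs with an untreated score of 350 to 450, 2 (0.143%) were at the ceiling after Adriamycin, and Bbc3 was one of them. The 6 kb limit and the score range were set with the Bbc3 values known, and Bbc3 is counted in both. Of all pairs, 25.9% were at the ceiling in untreated cells already, with no 30 points left to gain. How many of the 166 did so was not counted. Neither share tests whether Bbc3 stands out.

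The other matched H3K4me3 peaks also had higher ranks after Adriamycin, by 5.68 to 42.8 points, but the share of all pairs with any rise was not counted. The second Pmaip1 peak went from 3.15% to 17.3% (scores 59.51 and 118.83), and the far-end Bbc3 peak from 43.4% to 50.3% (376.93 and 574.77). A Bbc3 peak about 8 kb upstream of the start went from 60.1% to 65.7% (1116.69 and 1760.42). The rises of the far-end and this upstream Bbc3 peak were below the smaller limit used above. A pair that starts low, as the second Pmaip1 peak did, has little room to fall. No gain shared by the peaks of the 3 genes is drawn from these rises.

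**Figure D2:**
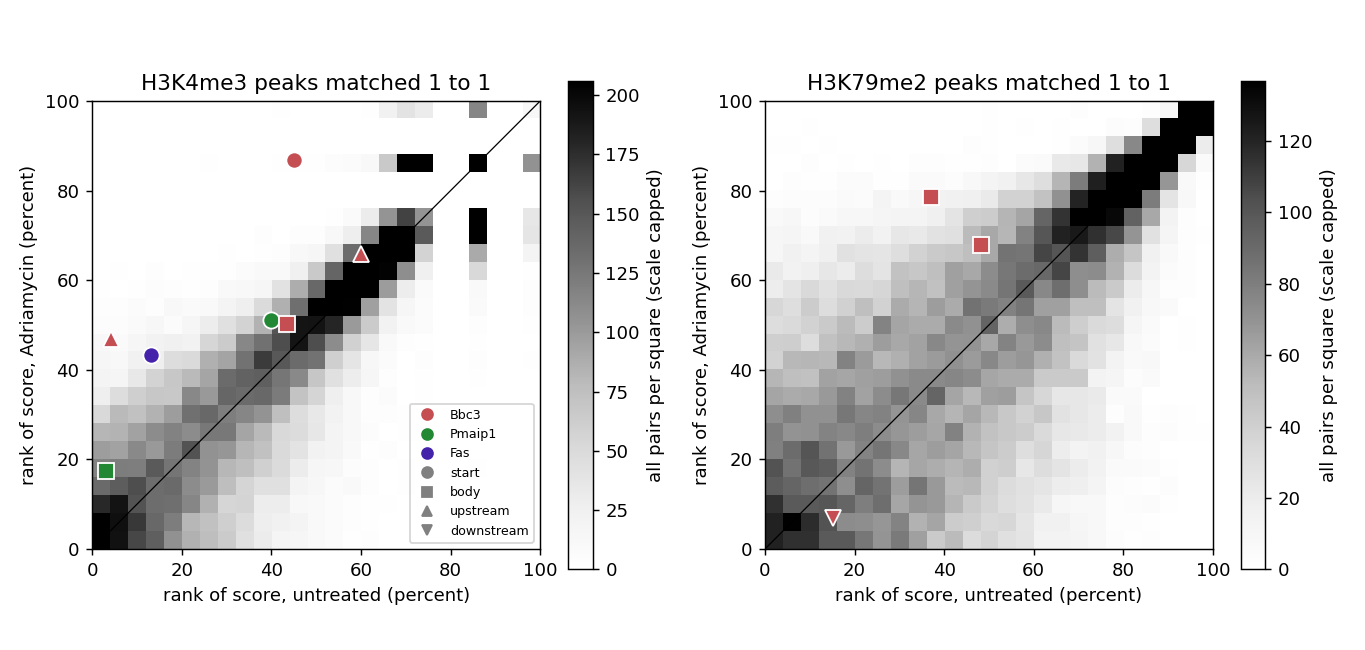
Each axis is the percent rank of a peak's score among the matched pairs, untreated across and Adriamycin upward, for H3K4me3 (left) and H3K79me2 (right). Grey squares count all pairs, and coloured markers are pairs in the windows, shaped by place. The start peaks of Bbc3 and Fas lie well above the diagonal at left, and the 2 Bbc3 gene-body pairs lie above it at right. Empty bands at left come from scores tied at 3100.

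The upstream window edge decided the H3K4me3 count at Bbc3. A peak ended at 16883706 after Adriamycin, a few bases inside the window, and at 16882920 in untreated cells, outside it. It measured 615 bp and 1322 bp, with scores of 62.13 and 474.26 and ranks of 4.13% and 46.9%. For this reason Bbc3 counted 3 H3K4me3 peaks in untreated cells and 4 after Adriamycin, although each had a partner. Of all H3K4me3 peaks, 14.5% in untreated cells and 15.8% after Adriamycin had none. The nearest peak left outside on that side by both lists lay at 16880024-16881512 in untreated cells (score 1422.83) and 16880082-16881361 after Adriamycin (2286.56). The downstream edge cut through H3K79me2. The untreated peak at 16912583-16914156 counted as inside, and of its 3 Adriamycin partners 1 was inside and 2 lay beyond. The H3K79me2 counts of 4 and 4 at Bbc3 rest on that edge too. The RefSeq gene table on GRCm38.p6 places Ccdc9 next to Bbc3 on the upstream side and Sae1 on the downstream side. Which gene these upstream peaks belong to was not determined.

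H3K79me2, laid down by Dot1l behind transcribing polymerase, set the 3 genes apart. Bbc3 carried it in both conditions, Pmaip1 in the Adriamycin list alone, and Fas in neither. In the full untreated list 19% of H3K79me2 peaks had no Adriamycin partner, and each of the 4 in the Bbc3 window had one. On Bbc3 the mark began about 2.0 kb into the gene and was absent from the 4 kb around the start. The first block was 4367 bp in untreated cells (16895722-16900088, score 115.62) and 4620 bp after Adriamycin (16895702-16900321, score 398.23). All 4367 bp of the untreated block lay under the broad H3K4me3 peak, as did 4461 bp of the treated one. A second block at the far end was 1715 bp (score 148.34) and 1851 bp (score 254.22). Both blocks were slightly wider after treatment, by 1.06 and 1.08 times, where 32.9% of matched H3K79me2 pairs were wider. Among the 27859 pairs the first block went from a rank of 37.1% to 78.5% and the second from 48.3% to 68.0%. The third matched pair of the window, on the Sae1 side, went the other way, from 1030 to 467 bp and from a rank of 15.3% to 7.02%. Over all pairs of any starting rank, 25.1% gained at least 10 points, 24.8% lost at least 10, and 6.99% gained at least 30.

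At Pmaip1 the nearest H3K79me2 peak of the untreated list lay 455.6 kb from the gene. After Adriamycin 1 peak of 1461 bp lay at 66618284-66619744, from 284 to 1744 bp into the gene (score 125.94), wholly under the H3K4me3 peak. It had no untreated partner, as 18% of all Adriamycin H3K79me2 peaks and 17.3% of those with scores of 100 to 150. Of 19870 H3K4me3 regions found in both conditions without H3K79me2 in untreated cells, 2.96% had it after Adriamycin, and the Pmaip1 start was one of these. A second new peak of 473 bp lay at 66623757-66624229 with a score of 54.28, close to the lowest score listed (50). Among Adriamycin peaks with scores of 50 to 60, 53% had no untreated partner.

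At Fas no H3K79me2 peak was listed, and the nearest lay 500.8 kb away in untreated cells and 510.0 kb away after Adriamycin. Of the 32392 H3K4me3 regions found in both conditions, 59.5% had no H3K79me2 in either, so Fas shared this state with most of them. The H3K4me3 peak at Fas thus widened between the lists with no H3K79me2 peak in either.

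**Figure D3:**
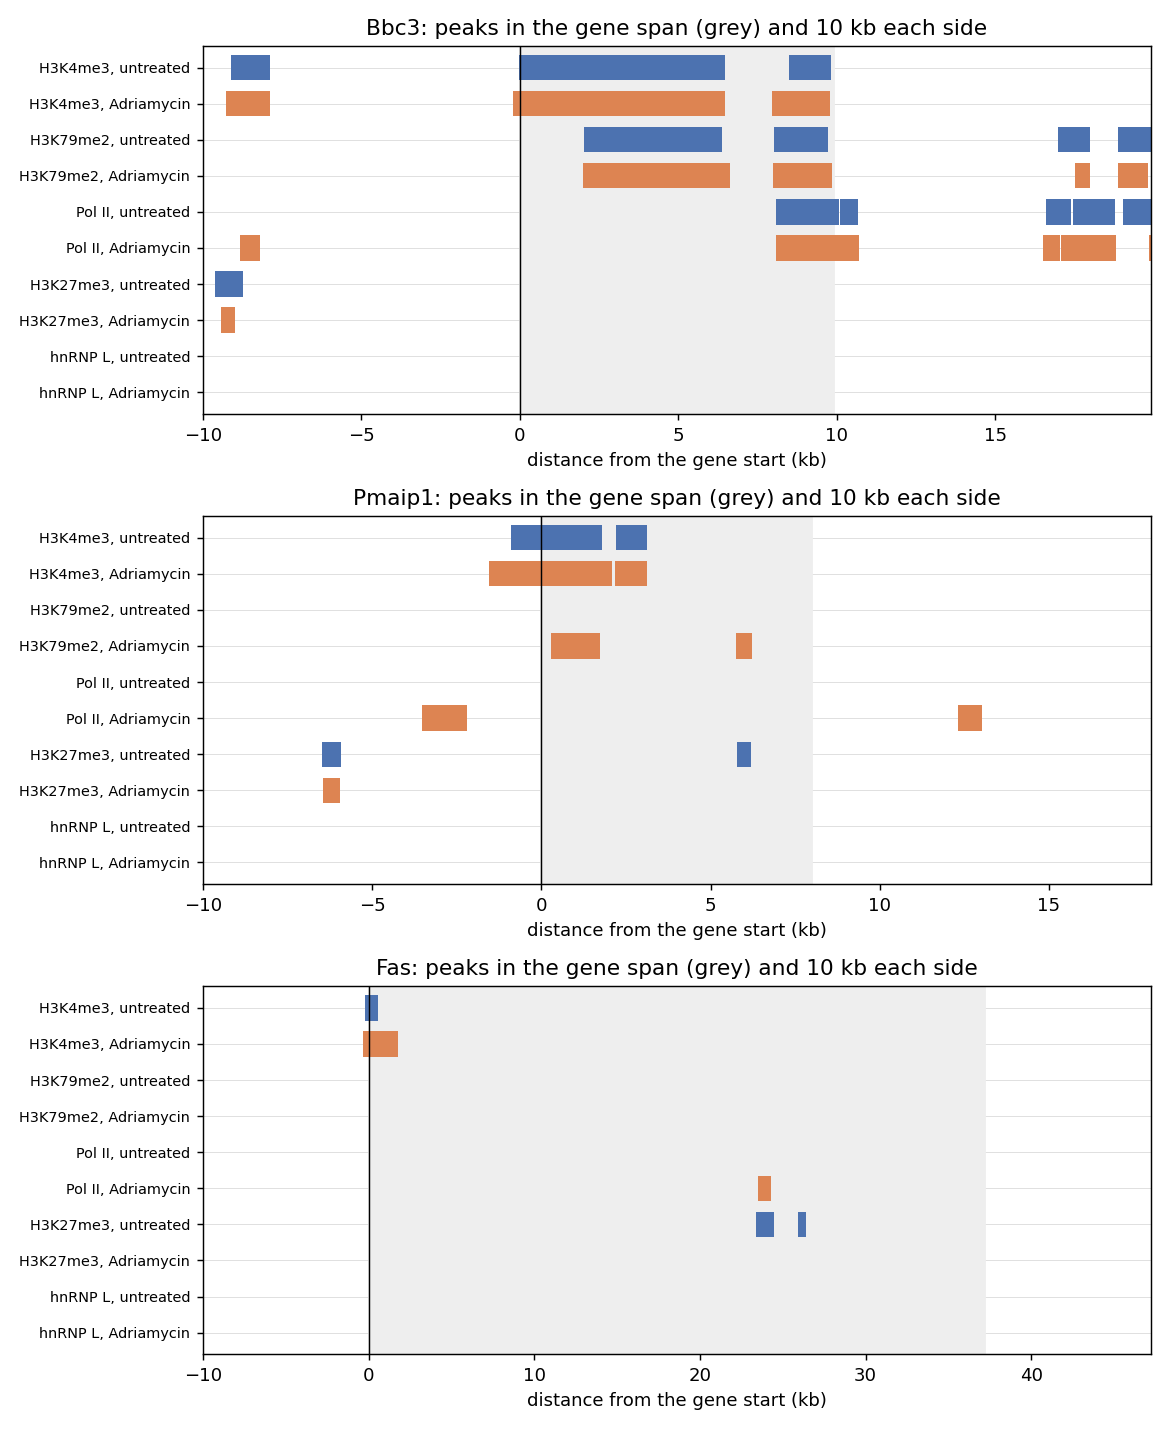
Peaks of the 10 lists along Bbc3, Pmaip1 and Fas, by distance in kb from the gene start. Grey marks the gene span, blue bars untreated peaks and orange bars Adriamycin peaks, and empty lines are lists with no peak. Bbc3 has H3K79me2 in both conditions, Pmaip1 only after Adriamycin and Fas in neither, while no list shows Pol II over any of the 3 starts.

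No Pol II peak touched the 4 kb around the start of any of the 3 genes, in either condition. Of the 32392 shared H3K4me3 regions, 32.1% had no Pol II in either list. Bbc3 held Pol II at its far end, in the same place as the second blocks of H3K4me3 and H3K79me2. This peak measured 1992 bp in untreated cells (16901789-16903780, score 562.85), followed by a separate one of 563 bp (score 306.66). After Adriamycin a single peak of 2606 bp covered both (16901783-16904388, score 822.3). The untreated far-end H3K4me3 peak of 1330 bp lay under Pol II over its whole length, and 1709 bp of the 1835 bp did so after Adriamycin. From the end of the gene to the window edge, on the side of Sae1, Pol II peaks covered 3726 bp before and 3111 bp after treatment. These lengths include the parts of the far-end peaks that lie past the gene. Over the whole Bbc3 window Pol II covered 5.54 kb and 5.56 kb. In windows of that length over the genome, 37.1% were at least 1.5 times lower for Pol II after Adriamycin and 7.74% at least 1.5 times higher (1 kb added to each length). The median log2 ratio over those windows was -0.38, against 0.0037 at Bbc3. The Pol II lists differed in size, with 81069 untreated and 59426 Adriamycin peaks. Of these, 2.98% and 0.453% were at the score ceiling. Most of the Pol II length in the Bbc3 window lay past the end of the gene in both lists. Whether Bbc3 differs from the genome in Pol II was not tested.

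Within the Bbc3 window, 1 Pol II peak of each list had no partner. The Adriamycin one measured 626 bp, ran from -8837 to -8212 bp, and lay inside an H3K4me3 peak (score 93.37). The untreated one measured 814 bp on the Sae1 side (score 147.44). Such peaks were common, with 26.1% of all Adriamycin and 48% of all untreated Pol II peaks lacking a partner. Among those of like score the shares were 29.1% (Adriamycin, scores of 90 to 100) and 51.7% (untreated, scores of 140 to 150).

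At Pmaip1 and Fas, Pol II peaks were listed only after Adriamycin, and all were weak. Those of Pmaip1 measured 1304 bp, ending 2.2 kb before the gene start (66614488-66615791, score 55.15), and 710 bp beyond the far end of the gene (66630309-66631018, score 54.1). Among Adriamycin Pol II peaks with scores of 50 to 60, 54% had no untreated partner. The single Fas peak measured 828 bp and began 23492 bp into the gene (34388592-34389419, score 66.81). Of peaks with scores of 60 to 70, 45.4% had no partner. None of the 3 peaks remained at a score of at least 100. Covered length of Pol II was 0 and 2.01 kb at Pmaip1 and 0 and 0.828 kb at Fas. In windows of matching length 7.86% (Pmaip1) and 7.3% (Fas) were at least 1.5 times higher. Those windows held at least 1 kb under Pol II peaks in either list. The Fas window, with 0.828 kb at most, would not have counted among them. A window with 0 kb in untreated cells, as at Pmaip1, entered only with 1 kb or more after Adriamycin and so always passed.

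H3K27me3 was sparse at the 3 genes and lay over none of their starts. At Fas, 2 peaks inside the gene were listed in untreated cells and none after Adriamycin. The larger measured 1111 bp at 34388489-34389599 (score 226.61) and ranked above 79.5% of its list. Among untreated H3K27me3 peaks with scores of 200 to 250, 11.8% had no Adriamycin partner, against 41.2% of all. The smaller measured 441 bp (score 54.6), in a range of scores where 73.2% had none (50 to 60). The new Fas Pol II peak lay wholly within the larger H3K27me3 peak. Of 15500 Adriamycin Pol II peaks without a partner, 4.54% overlapped an untreated H3K27me3 peak that itself had none, and of 40237 such H3K27me3 peaks 1.76% were overlapped in this way. The Fas pair is counted in both shares, which were chosen after values were seen, so neither share tests it.

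The covered length of H3K27me3 at Fas was 1.55 kb in untreated cells and 0 after Adriamycin, and 31% of windows of that length were at least 1.5 times lower. A window with 0 kb after Adriamycin always passed, since entry took at least 1 kb in either list. At Pmaip1, a peak about 6 kb upstream was found in both lists (27% of Adriamycin peaks had no partner), with 559 bp (score 70.97) and 486 bp (score 51.57). A further peak of 407 bp inside the gene was listed only in untreated cells (66623780-66624186, score 53.07). Among untreated H3K27me3 peaks with scores of 50 to 60, 73.2% had no Adriamycin partner. All 407 bp of this further peak lay under the weak H3K79me2 peak listed only after Adriamycin (score 54.28). Both scores were close to the lowest listed. Of 12931 Adriamycin H3K79me2 peaks without a partner, 0.518% overlapped an untreated H3K27me3 peak that itself had none. That share covers peaks of all scores, counts the Pmaip1 pair and was chosen after values were seen. It does not test the pair. At Bbc3, the only H3K27me3 peaks lay about 9 kb upstream, with 879 bp (score 52.74) and 471 bp (score 56.23).

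No hnRNP L peak lay in any of the 3 windows. The nearest in untreated cells were 1354 kb from Pmaip1, 1984 kb from Fas and 2715 kb from Bbc3. These lists were short, with 1120 and 1022 peaks over the genome.

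**Figure D4:**
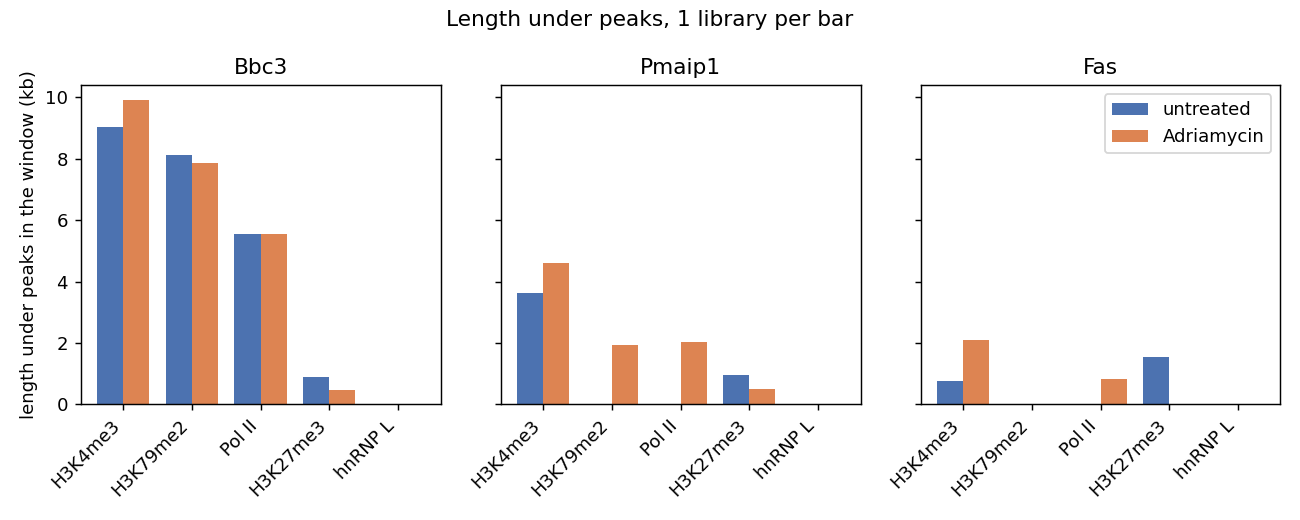
Length under peaks (kb) in the windows of Bbc3, Pmaip1 and Fas for the 5 targets, blue for untreated and orange for Adriamycin, with 1 library per bar and no error bars for that reason. H3K4me3 is higher after Adriamycin in each window (9.04 and 9.91 kb, 3.61 and 4.60 kb, 0.752 and 2.09 kb), and missing bars are lengths of 0.

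By covered length, 5 of the 15 combinations of gene and target passed 1.5 times between the lists. The 15 include hnRNP L at each gene and H3K79me2 at Fas, which had no peak in either list and could not pass. H3K4me3 at Fas was higher (0.752 and 2.09 kb, log2 ratio 0.82), where 3.53% of windows of that length passed in this direction. H3K79me2 at Pmaip1 was higher (0 and 1.93 kb, log2 ratio 1.55), against 4.61% of windows. Pol II was higher at Pmaip1 (log2 ratio 1.59) and Fas (0.87), from the weak peaks above. H3K27me3 at Fas was lower, with a log2 ratio of -1.35. A background window with 0 kb in 1 list entered only with at least 1 kb in the other, and so always passed. H3K79me2 and Pol II at Pmaip1 and H3K27me3 at Fas were of this kind. Their background shares also hold windows with peaks in both lists, and so are not a like comparison. No target passed at Bbc3, where H3K4me3 covered 9.04 and 9.91 kb and H3K79me2 8.13 and 7.87 kb. The H3K79me2 length on the Sae1 side was 2048 and 1402 bp, while in the Bbc3 gene body it was 6082 and 6471 bp. Windows of the Bbc3 length passed upward in 3.93% for H3K4me3, and downward in 9.95% for H3K79me2 and 30.1% for H3K27me3. At Pmaip1 neither H3K4me3 (log2 ratio 0.28, 3.91% of windows higher) nor H3K27me3 (-0.40, 30.3% lower) passed. H3K27me3 covered less than the 1 kb asked of background windows at Bbc3 (0.879 and 0.471 kb) and Pmaip1 (0.966 and 0.486 kb). The shares of 30.1% and 30.3% are thus for windows with more of the mark. Over all 3 windows 4 of 21 untreated and 6 of 23 Adriamycin peaks had no partner, and 4 of those 6 lay at Pmaip1. Over the full lists of the 5 targets, 34.5% of untreated and 22.6% of Adriamycin peaks had no partner.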

How the data were processed

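The files are 10 peak lists, 1 per library, which give a position and a score for each peak. The score is the authors' deposited value and was not rescaled. Per the submitters' processing notes, CASAVA 1.8.2, MACS 1.4.1 and build mm9 were used. The labels give no read depth, input library or other settings, and how sensitive each list is remains unknown.

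Coordinates are 1-based. Partners are peaks of 1 target that share at least 1 bp between untreated and Adriamycin lists. Covered length is the number of bases under peaks. The log2 ratios add 1 kb to each length, and 1.5 times is the threshold. Background windows were consecutive, as long as the gene's window, on chromosomes 1 to 19 and X, with at least 1 kb under peaks in either list. Pairs are peaks with a single partner each way. Tied scores shared a rank.

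All 3 genes given by the rule are named. The members and lists were chosen with earlier results of these data known. The ranks, widths of pairs, score ranges, shares of overlap between targets and the threshold of 30 points were chosen after values were seen. No mm9 annotation was used here, so the planned list of other p53 genes and the check of cell type markers were not run. Promoter windows were matched by symbol for 2 of the 3 genes. On simulated lists of 5000 peaks, 2000 of 2000 shared peaks were recovered, and 0 of 1000 windows had a wrong covered length. Python 3.11.15, numpy 2.4.6, SciPy 1.17.1, pandas 2.3.3 and matplotlib 3.10.9 were used.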

Additional observations from a re-analysis of the deposited data

How the results depend on the processing

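Of 168 values under alternatives, 144 stayed on the same side of their threshold or within 1.5 times. These include hnRNP L at each gene and H3K79me2 at Fas, which had no peak in any run and could not move. No difference past 1.5 times changed direction. Some below it did, all at Bbc3, so no direction is drawn from them. H3K79me2 (main log2 ratio -0.04) was 0.08 with 5 kb added, with the span alone and with nothing added downstream, and 0.05 with scores of at least 100. Pol II (0.0037) was -0.24 with 20 kb added, -0.10 with scores of at least 100 and -0.07 with peaks merged. H3K27me3 (-0.35) was 0.56 with lists of equal length. The calls for H3K4me3 and H3K27me3 at Fas and H3K79me2 at Pmaip1 held in each alternative run. Pol II at Pmaip1 fell to a log2 ratio of 0 with the gene span alone and with scores of at least 100, and Pol II at Fas to 0 with scores of at least 100, since no peak was left. H3K4me3 at Pmaip1 passed 1.5 times with scores of at least 100 (0.60). H3K27me3 passed it with 0.2 kb added to the lengths, at Bbc3 (-0.69) and Pmaip1 (-0.77).

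Counts of peaks without a partner are small and moved more. At Bbc3 the untreated count of 1 was 0 with 5 kb added, with the span alone, with peaks within 1 kb merged, and with nothing added downstream (chosen after seeing the data). It was 3 with 20 kb added, 2 with scores of at least 100 and 2 with lists cut to equal length by score. The Adriamycin count of 1 was 0 with 5 kb added and with the span alone, 3 with 20 kb and 2 with equal length. At Pmaip1 the untreated count of 1 was 0 with scores of at least 100 and with equal length. Its Adriamycin count of 4 was 2 with the span alone and 2 with scores of at least 100. At Fas the untreated count of 2 was 1 with scores of at least 100 and with equal length, and the Adriamycin count of 1 was 2 with 20 kb. The cause was not tested. No paired analysis was possible because each target has 1 library per condition.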
